A study of Mus musculus with 40 samples.

Results

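RNA-seq profiles of untreated mouse embryonic stem cells were compared between wild type and cells with both copies of GLP mutated (GLP 3A). The comparison rests on the 4 untreated libraries, 2 of each genotype, out of 8 RNA-seq samples in a series of 40 samples. The other 4 RNA-seq libraries came from cells given all-trans retinoic acid (RA) at 1 uM, with LIF withdrawn at the same time. They enter only the estimate of spread and a closing comparison, and the 32 chromatin and input samples are not analysed here. Both genotypes are listed with the strain background C57BL/6 (mixed). Both were kept on feeder cells in serum with LIF and then grown without feeders in 2i medium for 2 passages, and the untreated cells received no agent. The labels name no line or clone and do not say how many were used, so the mutation and any other difference between the cells compared cannot be told apart. Nor do they say whether replicates were grown apart, and a p-value here therefore reflects no more than the spread between the libraries, which may be technical.

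GLP, the product of Ehmt1, works with its partner G9a (Ehmt2) to place 1 or 2 methyl groups on lysine 9 of histone H3, a mark of silent chromatin. Besides its catalytic domain GLP carries ankyrin repeats that bind the mark it makes, and the 3A allele alters these repeats. In embryonic stem cells G9a and GLP are known for holding genes of the germ line silent. The medium 2i contains inhibitors of the MEK and GSK3 kinases and keeps stem cells in a naive state, close to the epiblast before implantation. The series as a whole asks about the part of GLP in propagating histone marks, and this comparison shows which transcripts differ in undifferentiated cells.

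Each library holds RPKM values (reads scaled to gene length and to library depth) for 23234 gene symbols. Of these, 13198 genes reached 1 RPKM in at least 2 of the 8 RNA libraries and were tested with limma on log2(RPKM + 1), with Benjamini-Hochberg adjustment over all of them. A gene is called higher or lower at an adjusted p under 0.05. Differences are GLP 3A minus wild type on the log2(RPKM + 1) scale, given with their standard error (SE, n = 2 libraries per genotype); this scale understates the change of genes near or under 1 RPKM. Positions are those of the deposited mm9 loci.

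Read counts are not in the files. The spacing of the lowest values put the depth of wild-type replicate 2 at 0.503 and of GLP 3A replicates 1 and 2 at 0.959 and 0.434 of wild-type replicate 1, so values near 0 rest on fewer reads in replicate 2. Markers of embryonic stem cells were abundant in all 4 libraries: the 10 markers summed to 5425 and 5488 RPKM in wild type and 4286 and 4281 in GLP 3A. Fibroblast markers, which feeder cells would carry, summed to 4.86 to 6.92 RPKM over 10 genes, primitive endoderm markers to 1.92 to 2.13 over 7 genes and markers of the 2-cell-like state to at most 0.307 over 6. Ehmt1 itself was lower in GLP 3A (-0.32 ± 0.07, adjusted p = 0.0334), which does not show whether the mutation is present because the files hold no sequence. Genes of chromosome 1 had a median difference of -0.24 and genes of chromosome 11 one of 0.24, and all 4 tested genes listed on the assembled Y chromosome were called higher. Counts of all called genes, runs and families below therefore leave these 3 chromosomes out unless stated. Counts of gene lists and short RNA genes cover every chromosome unless stated. The adjustment stays over all tested genes. The 17 other autosomes had medians from 0.00 to 0.08.

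**Figure D1:**
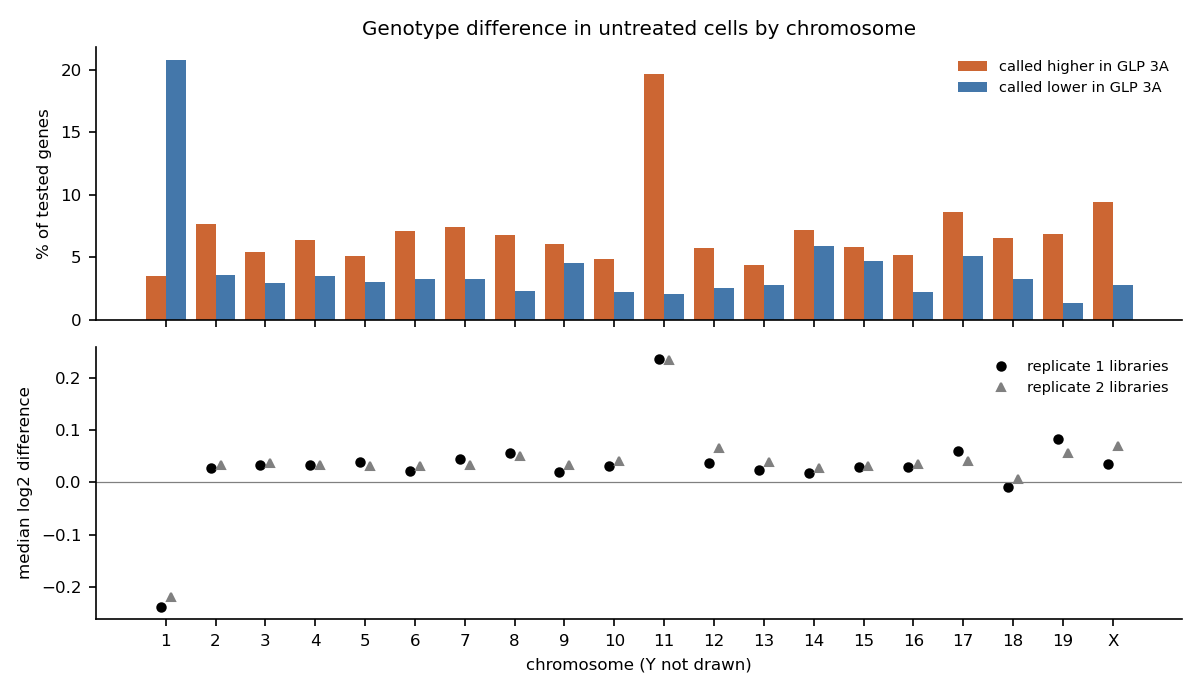
Share of tested genes called higher or lower in GLP 3A (upper panel, percent) and median log2 difference of all tested genes (lower panel, replicate 1 libraries and replicate 2 libraries apart) for each chromosome. Chromosome 1 (148 of 710 genes lower) and chromosome 11 (220 of 1114 higher) stand away from the 17 other autosomes, where 4.4% to 8.65% of genes were called higher and 1.32% to 5.88% lower.

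Outside chromosomes 1, 11 and Y, 743 of 11369 tested genes were called higher in GLP 3A (6.54%) and 377 lower (3.32%). The calls were mostly modest in size: the median was 0.64 among the genes called higher and -0.61 among those called lower, and 161 and 68 genes differed by at least 2-fold. The X chromosome had 44 genes called higher and 13 lower among 468, with 17 and 2 of them by 2-fold. By level, genes with a mean over all 8 libraries of more than 100 RPKM were called lower in 1.03% of 775, against 4.12% of 4875 genes at 1 to 10 RPKM, while the share called higher lay between 5.55% and 7.36% in all 4 bands. In bulk RNA a smaller number of cells with a transcript and less of it per cell cannot be told apart. Over all 13198 tested genes 993 were called higher (7.52%) and 548 lower (4.15%), the background for counts that include every chromosome. Higher calls made up 66.3% of the calls outside chromosomes 1, 11 and Y. This share was 52.6% after median-of-ratios scaling and 57.6% after quantile normalization, so the excess of higher calls depended on the scaling. With the 4 untreated libraries alone in the fit 2646 genes were called, and with wild-type replicate 1 or 2 or GLP 3A replicate 1 or 2 left out 187, 161, 208 and 189 were called.

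**Figure D2:**
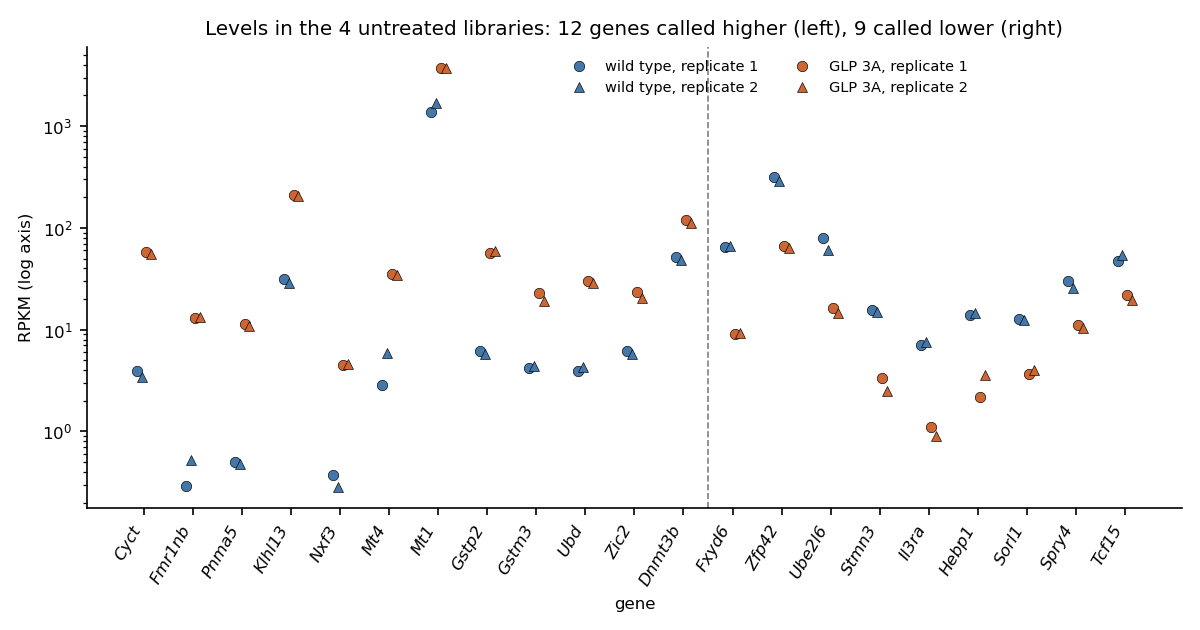
RPKM on a log axis in each of the 4 untreated libraries (circles replicate 1, triangles replicate 2; blue wild type, orange GLP 3A) for 12 genes called higher and 9 called lower. In all 21 genes both GLP 3A values lie on the same side of both wild-type values. The rule that picked the largest changes required this of its genes. The values lie as far apart as 3.95 and 3.45 against 58.4 and 55.3 RPKM for Cyct and as close as 52.003 and 47.9 against 120.4 and 112 for Dnmt3b.

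Cyct and several X-linked genes of a list built around cancer-testis genes were among the largest increases. Cyct, the testis form of cytochrome c (chromosome 2, 76191999 to 76198505), stood at 3.95 and 3.45 RPKM in wild type. In GLP 3A it stood at 58.4 and 55.3 RPKM (3.62 ± 0.20, adjusted p = 0.000599). Cancer-testis genes are normally active in the male germ line and in some tumours. The list of 45 genes, nearly all X-linked, holds such genes, their relatives and others such as Klhl13. Of the 45, 9 were expressed enough to be tested. Of these 9, 7 were called higher and 0 lower, beside 6.54% and 3.32% of all tested genes outside chromosomes 1, 11 and Y. Fmr1nb, Pnma5, Nxf3 and Xlr3a passed the filter on low values only through GLP 3A libraries and so had to differ, which makes these counts a description and no support for the list. Without the filter 30 members were tested, 10 of them called higher and 0 lower, with a median of 0.06. Of all 19619 genes tested without it, 900 were called higher and 486 lower. The list had 7 higher and 0 lower when the fit held the 4 untreated libraries alone, and 5 to 6 and 0 with 1 untreated library left out. These counts became 7 and 0 after median-of-ratios scaling and 7 and 0 after quantile normalization. Fmr1nb (chromosome X, 66015013 to 66057735), a neighbour of the fragile X gene, was close to silent in wild type (0.293 and 0.523 RPKM) and at 13.1 and 13.2 in GLP 3A (3.34 ± 0.19, adjusted p = 0.000685). Pnma5 (chromosome X, 70279319 to 70282442), of the paraneoplastic antigen family, was at 0.506 and 0.481 RPKM in wild type against 11.3 and 10.9 in GLP 3A (3.02 ± 0.14, adjusted p = 0.000284). Nxf3, a relative of the mRNA export factor Nxf1, was at 0.370 and 0.282 RPKM in wild type against 4.48 and 4.61 in GLP 3A (2.06 ± 0.20, adjusted p = 0.00371). Both GLP 3A libraries were above both wild-type libraries in Fmr1nb, Pnma5 and Nxf3 by more than 10 times the gap within a genotype on the RPKM scale. The filter and a naming rule that asked for no overlap both favoured such a gap, so its width is a description. Klhl13, an adaptor of a cullin ubiquitin ligase, differed from these 3 in being well expressed in wild type: it went from 31.3 and 29.02 to 210.4 and 207 RPKM (2.75 ± 0.21, adjusted p = 0.00179). Xlr3a was also higher (1.78 ± 0.20), as were, named after their values were seen, Usp26 (1.66 ± 0.12) and Mageb16 (0.58 ± 0.09). The 2 tested members that were not called, Nxf7 and Pramel1, differed by 0.21 ± 0.50 and -0.16 ± 0.14; Pramel1 lies on chromosome 4. Leaving out each untreated library in turn, Cyct, Fmr1nb, Pnma5, Nxf3, Klhl13 and Usp26 stayed called each time, Xlr3a in some of the fits and the other called genes named in none (adjusted p up to 0.102).

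The reproductive homeobox genes of the X chromosome were mostly too low to test. Only Rhox6 and Rhox9 of 16 Rhox genes in the files passed the filter on low values, both from under 1 RPKM in untreated wild type, and both were called higher. With the filter 6.54% of all tested genes outside chromosomes 1, 11 and Y were called higher. Without the filter 13 Rhox genes were tested and 2 called higher, with a median of 0.01, beside 900 called higher of all 19619 genes. Rhox9 rose from 0.278 and 0.233 to 6.74 and 6.46 RPKM (2.60 ± 0.38, adjusted p = 0.0115) and Rhox6 from 0.622 and 0.532 to 8.56 and 7.19 (2.49 ± 0.49, adjusted p = 0.0272). The Rhox genes include close copies, so their values may share reads. Omitting the untreated libraries 1 at a time, neither of these genes stayed called (adjusted p = 0.0827 to 0.158).

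A germ line list, which also counts the testis cytochrome c gene described above, had calls in both directions. Of 38 tested, 7 were called higher and 3 lower on all chromosomes, beside 7.52% and 4.15% of all tested genes. Outside chromosomes 1, 11 and Y the calls were 5 and 3 of 32, beside 6.54% and 3.32% of such genes, with a median there of 0.06. Zp3, which encodes a protein of the egg coat, was at 4.66 and 5.27 RPKM in wild type against 15.4 and 18.99 in GLP 3A (1.61 ± 0.12, adjusted p = 0.00169). Tdrd12, a factor of the piRNA pathway, was at 33.6 and 35.8 in wild type against 75.3 and 75.1 in GLP 3A (1.09 ± 0.18, adjusted p = 0.0149). Hormad2, a meiotic chromosome axis protein whose gene lies on chromosome 11, was at 0.822 and 0.772 in wild type against 3.90 and 2.72 in GLP 3A (1.25 ± 0.16). These genes were expressed at different levels in wild type, Tdrd12 well above the rest. Tex19.1 and Dmc1 were not called, at 1.39 ± 0.39 and 0.90 ± 0.23. Called lower, and named after their values were seen, were the meiotic genes Zcwpw1 (-0.79 ± 0.12), Stag3 (-0.74 ± 0.14) and Sycp1 (-0.59 ± 0.14). Mael, another piRNA pathway gene, differed by -0.62 ± 0.35 without a call, and Asz1 and Dazl did not pass the filter. In other fits the list had 13 higher and 8 lower when the fit held the 4 untreated libraries alone, and 2 to 4 and 0 with 1 untreated library left out. Quantile normalization gave 6 and 3 and median-of-ratios scaling 7 and 3. Under the 4 fits that each omit an untreated library, Zp3 stayed called each time, Hormad2 in some of the fits and the other called genes named in none (adjusted p up to 0.236).

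Metallothionein genes were higher as a cluster. Metallothioneins are small cysteine-rich proteins that bind zinc and copper, and all 4 mouse genes lie side by side on chromosome 8. Mt1 and Mt2, which most tissues use, were already among the abundant transcripts of wild-type cells: Mt1 stood at 1373 and 1673 RPKM in wild type against 3724 and 3715 in GLP 3A (1.29 ± 0.26, adjusted p = 0.0285), and Mt2 at 936 and 981 in wild type against 2456 and 2670.3 in GLP 3A (1.42 ± 0.31, adjusted p = 0.0362). Mt3, the brain form, was at 6.98 and 9.94 in wild type against 19.5 and 16.95 in GLP 3A (1.04 ± 0.18, adjusted p = 0.0182). Mt4, the form of stratified epithelium, was at 2.89 and 5.86 in wild type against 35.04 and 34.7 in GLP 3A (2.80 ± 0.28, adjusted p = 0.00381), the widest difference of the 4. No library of one genotype overlapped the other in any of the 4 genes. The share of all tested genes without such overlap was not counted, so this cannot be weighed. Of the zinc transporters listed with them, the exporter Slc30a1 was at -0.41 ± 0.13 and the importer Slc39a10 at -0.13 ± 0.13, neither called. Both lie on chromosome 1, whose genes had a median of -0.24. In another list, of 10 zinc and iron transport genes, 3 were called higher and 0 lower (median 0.32), beside 7.52% and 4.15% of all tested genes. That list had 2 higher after median-of-ratios scaling and 1 after quantile normalization. A part of metal in these differences was not tested. The list of 7 genes had 4 higher and 1 lower when the fit held the 4 untreated libraries alone, and 1 to 2 and 0 with 1 untreated library left out. Median-of-ratios scaling gave 4 and 0, and quantile normalization 2 and 0. With any 1 of the 4 untreated libraries left out, Mt4 stayed called each time, Mt3 in some of the fits and the other called genes named in none (adjusted p up to 0.18).

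Metal-response elements are the sites by which zinc, through the factor Mtf1, controls metallothionein genes, and their core was looked for in the 250 bases before the RefSeq start of each gene to show what these neighbouring promoters share. The sequences are RefSeq's on build GRCm38.p6, all on the plus strand of chromosome 8, with matches to TGCGCNC or TGCACNC on either strand in capitals. The windows are chr8:94136954-94137203 for Mt4, chr8:94152357-94152606 for Mt3, chr8:94172368-94172617 for Mt2 and chr8:94178839-94179088 for Mt1.
Mt4: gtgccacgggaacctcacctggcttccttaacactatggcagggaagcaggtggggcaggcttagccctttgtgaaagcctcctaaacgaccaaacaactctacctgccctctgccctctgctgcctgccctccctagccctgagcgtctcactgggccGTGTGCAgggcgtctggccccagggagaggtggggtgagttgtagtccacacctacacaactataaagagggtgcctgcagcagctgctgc
Mt3: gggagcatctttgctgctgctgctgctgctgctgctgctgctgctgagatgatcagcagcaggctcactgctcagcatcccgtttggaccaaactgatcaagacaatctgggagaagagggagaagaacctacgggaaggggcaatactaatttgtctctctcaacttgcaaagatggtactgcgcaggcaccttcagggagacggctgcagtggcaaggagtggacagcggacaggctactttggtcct
Mt2: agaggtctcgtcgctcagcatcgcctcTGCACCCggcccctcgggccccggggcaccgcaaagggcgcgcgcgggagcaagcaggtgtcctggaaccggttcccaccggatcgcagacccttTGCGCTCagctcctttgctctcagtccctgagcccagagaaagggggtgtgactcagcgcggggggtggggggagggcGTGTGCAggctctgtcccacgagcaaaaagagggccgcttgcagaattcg
Mt1: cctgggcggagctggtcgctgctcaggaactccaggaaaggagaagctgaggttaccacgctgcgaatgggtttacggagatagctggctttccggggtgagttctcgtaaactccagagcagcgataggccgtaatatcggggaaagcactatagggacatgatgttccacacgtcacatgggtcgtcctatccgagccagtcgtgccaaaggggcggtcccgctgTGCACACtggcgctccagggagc
Matches numbered 1 for Mt4, 0 for Mt3, 3 for Mt2 and 1 for Mt1. Of all 32851 promoter windows of the same length 21.4% held at least 1 match and 1.26% held 3 or more. A match is a stretch of letters and not a measured site, and the RefSeq start of a gene may not be the start used in these cells.

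Glutathione transferases, which couple glutathione to reactive compounds, were higher in 2 gene clusters. Of 29 tested genes of glutathione metabolism 8 were called higher and 1 lower, with a median of 0.26, beside 7.52% and 4.15% of all tested genes. Gstp2 (chromosome 19, 4040287 to 4042221) went from 6.20 and 5.79 RPKM in wild-type cells to 56.3 and 59.1 in GLP 3A (3.07 ± 0.34, adjusted p = 0.00513) and its neighbour and close copy Gstp1 from 32.8 and 32.4 to 89.5 and 93.5 (1.46 ± 0.09, adjusted p = 0.000993). Reads may be split between these 2 genes. Of 7 tested Gstm genes on chromosome 3, 4 that lie next to each other were called higher, a run picked for its calls: Gstm3 (4.17 and 4.41 to 23.2 and 19.15 RPKM, 2.06 ± 0.11, adjusted p = 0.000586), Gstm6 (1.06 ± 0.26) and, named after their values were seen, Gstm2 (1.03 ± 0.12) and Gstm1 (0.92 ± 0.13). Gstm4, Gstm5 and Gstm7, also named after their values were seen, were not called (-0.01 ± 0.17, 0.06 ± 0.16 and 0.04 ± 0.25). Gpx2, a glutathione peroxidase, stood at 15.8 and 17.8 RPKM in wild type against 55.4 and 55.1 in GLP 3A, but its difference of 1.66 ± 0.47 was not called (adjusted p = 0.0725). In alternative fits the glutathione list had 12 higher and 2 lower when the fit held the 4 untreated libraries alone, and 2 to 4 and 0 with 1 untreated library left out. After median-of-ratios scaling the counts were 7 and 2, and after quantile normalization 6 and 1. Of 15 targets of Nrf2, the factor that drives detoxification genes, with Gclc, Gclm and Gsta4 also in the glutathione list, 3 were called higher and 0 lower (median 0.09): Nqo1, a quinone reductase (19.095 and 19.5 to 27.6 and 30.1 RPKM, 0.56 ± 0.11), Hmox1, heme oxygenase (0.53 ± 0.12), and Pgd, of the pentose phosphate pathway (0.40 ± 0.09). Over the same alternatives the Nrf2 list had 7 higher and 0 lower when the fit held the 4 untreated libraries alone, and 0 and 0 with 1 untreated library left out. These counts became 1 and 0 after median-of-ratios scaling and 0 and 0 after quantile normalization. Omitting the untreated libraries 1 at a time, Gstp1 and Gstm3 stayed called each time, Gstp2 and Gstm2 in some of the fits and the other called genes named in none (adjusted p up to 0.233).

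**Figure D3:**
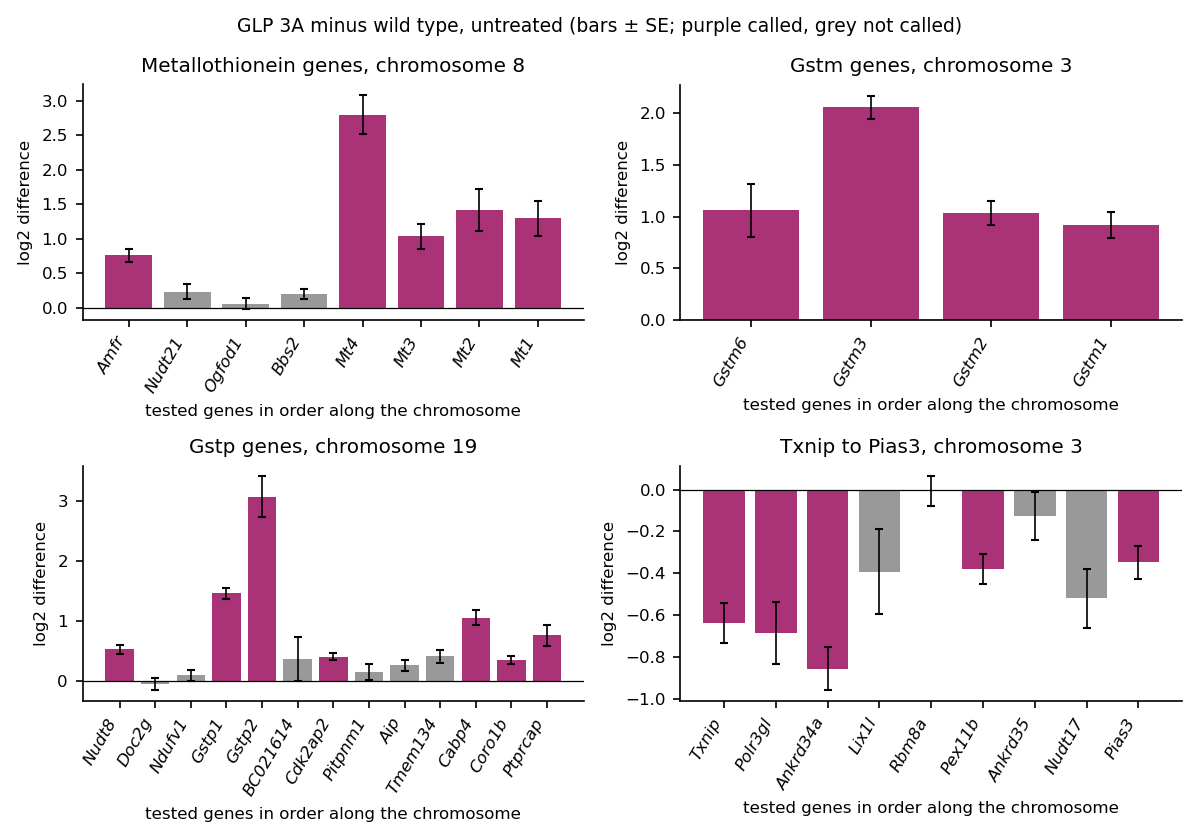
Log2 difference (GLP 3A minus wild type, bars ± SE) of every tested gene, in order along the chromosome, inside 4 stretches that begin and end at called genes. The Gstm stretch has 4 genes called higher, with the uncalled Gstm4, Gstm5 and Gstm7 outside it, and the stretch with the metallothionein genes 5 of 8, while 7 of 13 around the Gstp genes were called higher and 5 of 9 from Txnip to Pias3 lower.

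Several genes of cell junctions and keratin filaments were called higher. Of 28 tested genes of cell junctions, which seal and couple neighbouring cells, 7 were called higher and 0 lower (median 0.24). The shares over all tested genes were 7.52% and 4.15%. The claudin gene Cldn3 was at 3.18 and 3.35 RPKM in wild type against 8.85 and 8.15 in GLP 3A (1.16 ± 0.16, adjusted p = 0.01), and P-cadherin, Cdh3, at 2.31 and 1.75 in wild type against 5.21 and 5.35 in GLP 3A (1.06 ± 0.11, adjusted p = 0.00437). The connexin gene Gjb5 was at 8.09 and 8.02 in wild type against 17.7 and 17.5 in GLP 3A (1.04 ± 0.24). Vim, vimentin, the filament protein of mesenchymal cells, stood in the same list and was also higher (28.7 and 27.2 to 62.7 and 60.1 RPKM, 1.11 ± 0.21), so the called members were not all epithelial. E-cadherin, Cdh1, differed by 0.39 ± 0.15 without a call. The junction list had 13 higher and 0 lower when the fit held the 4 untreated libraries alone, and 1 and 0 with 1 untreated library left out. Quantile normalization gave 4 and 0 and median-of-ratios scaling 4 and 0. Among keratins, the filament proteins of epithelia, 4 of 9 were called higher, but 3 of them, Krt42, Krt17 and Krt19, lie on chromosome 11. Krt18 on chromosome 15 went from 8.69 and 8.73 to 16.6 and 16.97 RPKM (0.87 ± 0.21, adjusted p = 0.0476) and its partner Krt8 from 11.2 and 12.7 to 21.4 and 23.3 without a call (0.85 ± 0.24, adjusted p = 0.0716). The 8 trophoblast markers, which include Krt7, Krt8 and Krt18, summed to 59.6 and 60.3 RPKM in wild type and 100.8 and 99.4 in GLP 3A. Of the 8, 3 were under 1 RPKM in all 4 libraries and only Krt18 was called. Tfap2c rose most in RPKM (28.8 and 28.9 to 52.4 and 48.7) without a call. Eomes went the other way (8.21 and 7.38 to 5.81 and 5.26), also without a call. The part of trophoblast cells in the result was not tested. With any 1 of the 4 untreated libraries left out, Cdh3 stayed called each time and the other called genes named in none (adjusted p up to 0.203).

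Genes induced by interferon went in both directions. Of 24 tested, 7 were called higher and 2 lower, and 6 and 1 of 18 outside chromosomes 1, 11 and Y. The shares of all tested genes called higher and lower were 7.52% and 4.15%, and 6.54% and 3.32% outside those chromosomes. Ubd, a ubiquitin-like modifier also called FAT10, was at 3.88 and 4.27 RPKM in wild type against 29.9 and 28.4 in GLP 3A (2.57 ± 0.11, adjusted p = 0.000243). The guanylate-binding protein gene Gbp2 was at 0.243 and 0.268 in wild type against 2.22 and 2.26 in GLP 3A (1.37 ± 0.21), and Bst2, tetherin, at 31.1 and 36.1 in wild type against 62.2 and 60.4 in GLP 3A (0.85 ± 0.17). In the opposite direction Ube2l6, the conjugating enzyme for the interferon-induced modifier ISG15, fell from 79.2 and 60.3 to 16.5 and 14.5 RPKM (-2.09 ± 0.19, adjusted p = 0.00293). Refitting this list gave 12 higher and 3 lower when the fit held the 4 untreated libraries alone, and 1 and 1 with 1 untreated library left out. Median-of-ratios scaling gave 4 and 2, and quantile normalization 3 and 2. Of 19 genes of antigen processing 4 were called higher and 0 lower (median 0.15), among them the peptidase Erap1 (1.04 and 1.15 to 3.21 and 2.74 RPKM, 0.92 ± 0.15), the immunoproteasome subunit Psmb8 (0.321 and 0.282 to 1.47 and 1.36, 0.89 ± 0.18) and the proteasome activator Psme2 (0.53 ± 0.11). The fourth, Canx, lies on chromosome 11. B2m, the light chain of MHC class I, was at 37.4 and 47.1 RPKM in wild type against 21.1 and 35.8 in GLP 3A without a call. The antigen processing list gave 7 higher and 0 lower when the fit held the 4 untreated libraries alone, and 0 and 0 with 1 untreated library left out. After median-of-ratios scaling the counts were 4 and 0, and after quantile normalization 2 and 0. Of other genes tied to immune responses, the acute phase gene Saa3 rose from 2.63 and 1.56 to 14.5 and 13.7 RPKM (2.31 ± 0.24, adjusted p = 0.00384), the mitochondrial NOD-like protein gene Nlrx1 from 0.116 and 0.203 to 3.27 and 3.33 (1.89 ± 0.20, adjusted p = 0.00394) and Wfdc2, a secreted protease inhibitor-like protein, from 17.2 and 18.7 to 101.3 and 100.1 (2.42 ± 0.24, adjusted p = 0.00361). Leaving out each untreated library in turn, Ubd, Ube2l6, Saa3, Nlrx1 and Wfdc2 stayed called each time and the other called genes named in none (adjusted p up to 0.201).

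Some genes of cholesterol synthesis were called higher, by small amounts. Of 23 tested genes of the pathway 7 were called higher and 0 lower, beside 7.52% and 4.15% of all tested genes. Of the 23 differences 19 were above 0, with a median of 0.23. The sterol isomerase gene Ebp went from 24.6 and 23.1 to 38.7 and 37.6 RPKM (0.66 ± 0.11, adjusted p = 0.0143). The sterol demethylase gene Cyp51 was called higher as well, at 26.5 and 26.1 RPKM in wild type against 39.3 and 35.03 in GLP 3A (0.48 ± 0.10, adjusted p = 0.0292). Srebf2, the transcription factor of the pathway, was not called (0.23 ± 0.11). The calls of this list depended on the fit and the scaling: there were 14 higher and 1 lower when the fit held the 4 untreated libraries alone, and 0 and 0 with 1 untreated library left out. These counts became 3 and 0 after median-of-ratios scaling and 1 and 0 after quantile normalization. The list's median stayed above 0 under both scalings, at 0.17 and 0.15. Of 15 genes of fatty acid synthesis 2 were called higher, Fads2, a desaturase (19.7 and 22.3 to 43.03 and 46.5 RPKM, 1.06 ± 0.11, adjusted p = 0.00383), and Fasn on chromosome 11 (0.56 ± 0.12). Under the 4 fits that each omit an untreated library, Fads2 stayed called each time and the other called genes named in none (adjusted p up to 0.199).

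Membrane transporters of the Slc class held many calls. Of 175 tested outside chromosomes 1, 11 and Y, 22 were called higher and 4 lower (12.6% and 2.29%, beside 6.54% and 3.32% of all such genes), with a median of 0.12. Slc4a5, a bicarbonate cotransporter, had the widest called difference (0.604 and 0.483 to 4.59 and 3.84 RPKM, 1.75 ± 0.16, adjusted p = 0.00291). The amino acid transporter Slc43a1 (1.52 and 2.38 to 5.80 and 6.30, 1.27 ± 0.16), the nucleoside transporter Slc28a1 (8.57 and 8.53 to 20.4 and 19.25, 1.12 ± 0.23) and the fatty acid transporter Slc27a4 (6.22 and 5.67 to 14.3 and 12.6, 1.05 ± 0.13) followed. The zinc importer Slc39a1 was higher as well (0.74 ± 0.10). Over all chromosomes the 203 transporters gave 34 higher and 5 lower. The same transporters had 58 higher and 18 lower when the fit held the 4 untreated libraries alone, and 2 to 4 and 0 to 1 with 1 untreated library left out. Quantile normalization gave 21 and 3 and median-of-ratios scaling 26 and 8. Omitting the untreated libraries 1 at a time, Slc4a5 stayed called each time, Slc43a1, Slc27a4 and Slc39a1 in some of the fits and the other called genes named in none (adjusted p up to 0.172).

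Among genes that separate naive from later pluripotency, few naive genes were called and several later ones were. Over all tested genes 7.52% were called higher and 4.15% lower. Of 31 naive genes 1 was called higher and 1 lower, with a median of 0.00; those 2, Dppa3, a maternal factor, and Zfp42, the Rex1 gene, were among the larger changes of the whole comparison (2.03 ± 0.24 and -2.20 ± 0.29). Klf4 (172 and 163 RPKM in wild type, 107 and 98.7 in GLP 3A), Tfcp2l1 (118 and 93.5 in wild type against 67.5 and 61.2 in GLP 3A) and Esrrb (190.02 and 179 in wild type against 145 and 138 in GLP 3A) had lower values in both GLP 3A libraries, and Nanog (149 and 143 in wild type against 187 and 191 in GLP 3A) had higher values in both. None of these 4 was called, with adjusted p of 0.278, 0.212, 0.575 and 0.497; their spread is taken over all 8 libraries, and with only the 4 untreated libraries 5 naive genes were called higher and 9 lower. Of 21 formative and primed genes 6 were called higher and 2 lower, with a median of 0.31. Zic2, a zinc finger factor of the early neural plate, went from 6.15 and 5.75 to 23.7 and 20.3 RPKM (1.72 ± 0.27, adjusted p = 0.0128), and its neighbour Zic5 from 2.60 and 2.90 to 6.79 and 5.80 (0.96 ± 0.16). Dnmt3b, a de novo DNA methyltransferase, went from 52.003 and 47.9 to 120.4 and 112 (1.20 ± 0.15, adjusted p = 0.00733), whereas Dnmt3a differed by 0.06 ± 0.09 and Dnmt3l by -0.47 ± 0.72, neither called. Tcf15, a bHLH factor of cells primed to leave the naive state, fell from 47.2 and 53.9 to 21.8 and 19.6 (-1.24 ± 0.12, adjusted p = 0.00336). Otx2, named after its value was seen, also fell (-0.56 ± 0.12). The formative and primed list gave 10 higher and 4 lower when the fit held the 4 untreated libraries alone, and 0 and 1 with 1 untreated library left out. Median-of-ratios scaling gave 4 and 3, and quantile normalization 3 and 2. Leaving out each untreated library in turn, Tcf15 stayed called each time and the other called genes named in none (adjusted p up to 0.194).

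**Figure D4:**
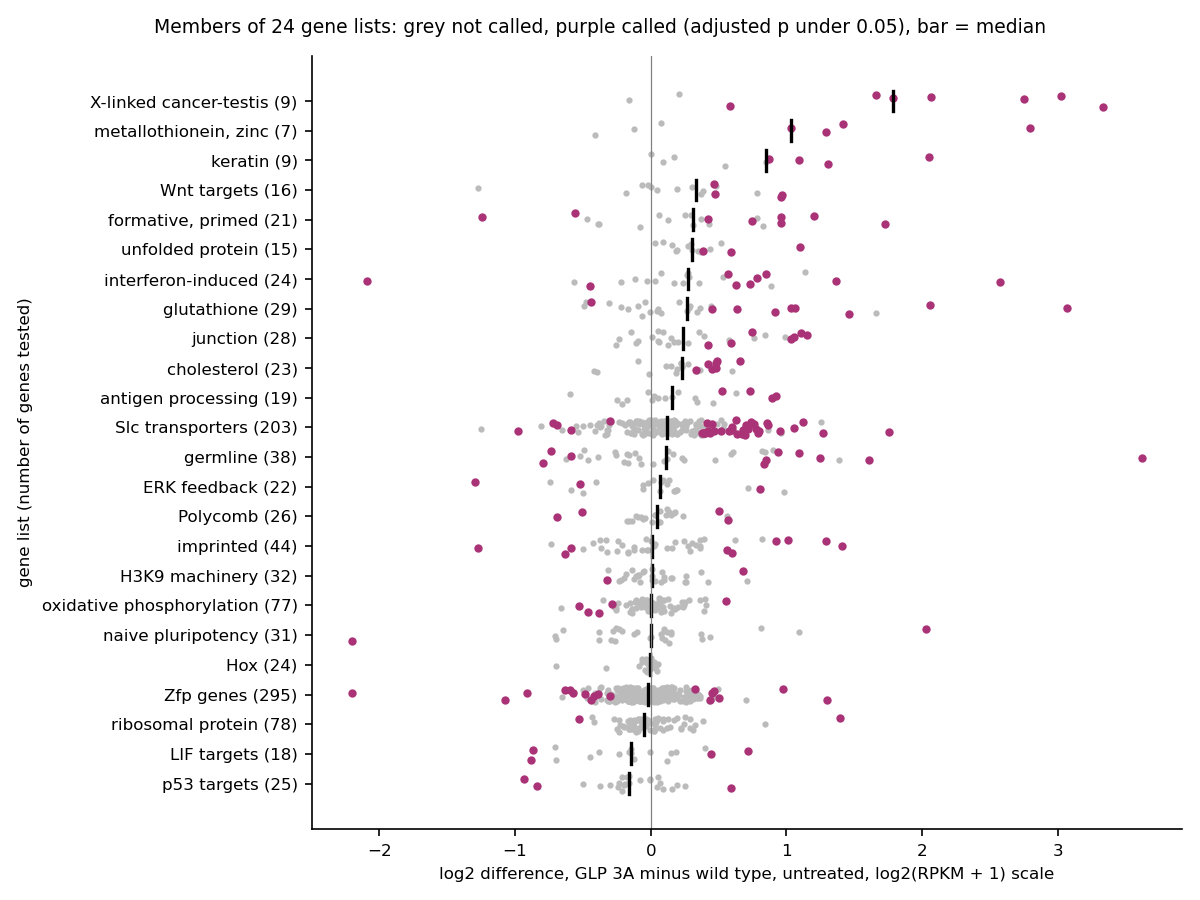
Log2 difference of each tested member (points, purple where called) of 24 gene lists, with the list's median as a black bar and the number of tested genes in brackets. The cancer-testis list at the top has 7 of 9 genes called, 4 of which passed the filter only through GLP 3A libraries, while ribosomal protein, Hox, Zfp and H3K9 machinery genes gather around 0.

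Signalling targets were called in small numbers, beside 7.52% of all tested genes called higher and 4.15% lower (6.54% and 3.32% outside chromosomes 1, 11 and Y). Of 16 Wnt target genes, which GSK3 inhibition in 2i turns on, 4 were called higher and 0 lower, 2 of them outside chromosomes 1, 11 and Y. These were T (brachyury, 3.58 and 3.46 to 8.11 and 7.44 RPKM, 0.96 ± 0.20, adjusted p = 0.0331) and Tnfrsf19 (0.48 ± 0.11). On chromosome 11 Notum, a secreted Wnt inhibitor, was at 28.2 and 28.9 in wild type against 58.9 and 54.8 in GLP 3A (0.97 ± 0.14) and Znrf3 at 0.47 ± 0.10. Cdx1, a further target, was at 25.9 and 27.9 RPKM in wild type against 11.1 and 9.93 in GLP 3A without a call (-1.28 ± 0.52, adjusted p = 0.17). Of 22 feedback genes of the ERK pathway, which MEK inhibition turns down, 1 was called higher and 2 lower. Spry4, an inhibitor of the pathway, fell from 29.8 and 25.8 to 10.98 and 10.4 RPKM (-1.29 ± 0.12, adjusted p = 0.00293) and Spred1 was also lower (-0.52 ± 0.10), while Ier3 rose (0.80 ± 0.13). Egr1 was at 34.05 and 35.7 in wild type against 70.7 and 68.9 in GLP 3A without a call (0.98 ± 0.38), so members of this list stood on both sides. Of 18 targets of LIF and Stat3, Socs1 (0.72 ± 0.09) and the receptor gene Il6st (0.45 ± 0.10) were called higher and Pim3 (-0.87 ± 0.15) and, on chromosome 1, Gbx2 lower (-0.88 ± 0.13). Of 22 genes of the TGF-beta and BMP list 1 was called higher, Id3 (0.61 ± 0.14), and 3 lower. These were its relative Id1 (-0.76 ± 0.11), the activin antagonist Fst (-0.86 ± 0.08) and, on chromosome 1, the activin subunit gene Inhbb (2.75 and 3.33 to 0.762 and 0.607 RPKM, -1.26 ± 0.16, adjusted p = 0.00752). In alternative fits the Wnt list gave 8 higher and 1 lower when the fit held the 4 untreated libraries alone, and 0 and 0 with 1 untreated library left out. After median-of-ratios scaling the counts were 2 and 0, and after quantile normalization 1 and 0. With any 1 of the 4 untreated libraries left out, Spry4 and Fst stayed called each time, Socs1 in some of the fits and the other called genes named in none (adjusted p up to 0.231).

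Fxyd6, a regulator of the sodium pump (chromosome 9, 45178267 to 45204242), had one of the largest decreases, from 64.9 and 66.6 RPKM in wild-type cells to 9.14 and 9.26 in GLP 3A (-2.71 ± 0.14, adjusted p = 0.000551). Il3ra, the alpha chain of the interleukin 3 receptor, fell from 7.09 and 7.60 to 1.11 and 0.910 (-2.06 ± 0.20, adjusted p = 0.00346), and Hebp1, a heme-binding protein gene, from 13.8 and 14.5 to 2.20 and 3.58 (-1.98 ± 0.17, adjusted p = 0.00256). These 3 were picked among genes whose genotypes did not overlap, so their lack of overlap was set by that choice. Stmn3, a microtubule regulator of neurons, fell from 15.7 and 15.02 to 3.37 and 2.47 (-2.07 ± 0.16, adjusted p = 0.00171), and Sorl1, a sorting receptor, from 12.7 and 12.5 to 3.66 and 4.02 (-1.49 ± 0.10, adjusted p = 0.000993). Stmn3 belongs to the neural list, of whose 16 tested genes 3 were called higher and 1 lower, beside 7.52% and 4.15% of all tested genes. The other 3 called genes of the neural list went the other way: Nes, nestin (0.96 ± 0.15), Tubb3, a neuronal tubulin (24.6 and 23.6 to 44.2 and 40.97 RPKM, 0.79 ± 0.07) and Nefl, a neurofilament gene (0.73 ± 0.17). Further decreases were those of the lipase-like gene Pnpla3 (-1.55 ± 0.26), the growth factor gene Fgf15 (-1.52 ± 0.30), the chromatin protein gene Hmga2 (14.9 and 13.7 to 4.78 and 4.36, -1.46 ± 0.21), the membrane protein genes Tmem64 (-1.49 ± 0.15) and Pqlc1 (-1.51 ± 0.15), the protease gene Ufsp2 (-1.64 ± 0.14), Napsa (-1.53 ± 0.35), the small heat shock gene Hspb2 (-1.45 ± 0.17) and Plekhb1 (-1.38 ± 0.12). Under the 4 fits that each omit an untreated library, Fxyd6, Il3ra, Hebp1, Stmn3, Sorl1, Tubb3, Tmem64, Pqlc1, Ufsp2 and Plekhb1 stayed called each time, Hspb2 in some of the fits and the other called genes named in none (adjusted p up to 0.232).

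Large increases outside the lists included Smtnl1, a smooth muscle contraction regulator (0.0910 and 0.0307 to 5.45 and 5.09 RPKM, 2.56 ± 0.18, adjusted p = 0.00161), and Maml2, a co-activator of Notch signalling (0.0625 and 0.0331 to 3.31 and 3.60, 2.09 ± 0.09, adjusted p = 0.000284). Both were close to silent in untreated wild type. Smtnl1 passed the filter on low values only through the untreated GLP 3A libraries and so had to differ, which makes its call a description. Egfl6, an X-linked gene of the extracellular matrix, rose from 0.848 and 0.787 to 9.84 and 8.50 (2.48 ± 0.24, adjusted p = 0.00345) and Prrc1 from 10.1 and 9.91 to 38.1 and 36.4 (1.79 ± 0.12, adjusted p = 0.000993). Rpl39l, the germ line and stem cell copy of a ribosomal protein gene, rose from 1.57 and 1.61 to 6.43 and 5.22 (1.39 ± 0.12, adjusted p = 0.00281). It was the only 1 of 78 ribosomal protein genes called higher; Rpl7, on chromosome 1, was called lower (-0.53 ± 0.11). Leaving out each untreated library in turn, Smtnl1, Maml2, Egfl6, Prrc1 and Rpl39l stayed called each time and the other called genes named in none (adjusted p up to 0.181).

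Imprinted genes went both ways, 6 called higher and 3 lower of 44 (median 0.01), beside 7.52% and 4.15% of all tested genes. Refits of the imprinted list had 11 higher and 11 lower when the fit held the 4 untreated libraries alone, and 0 to 1 and 0 to 1 with 1 untreated library left out. These counts became 5 and 4 after median-of-ratios scaling and 5 and 3 after quantile normalization. H19 (2.36 and 2.97 to 9.01 and 8.36 RPKM, 1.41 ± 0.16), whose locus also holds Mir675, Sfmbt2 (3.68 and 3.19 to 9.93 and 9.76, 1.29 ± 0.21) and Peg3 (19.16 and 17.2 to 37.2 and 37.9, 1.01 ± 0.18) were higher, all 3 overlapping other symbols whose reads cannot be told apart. Snrpn was at 73.6 and 76.9 RPKM in wild type against 133 and 135 in GLP 3A without a call (0.82 ± 0.21, adjusted p = 0.0537). Tsix, the antisense partner of Xist, was lower (3.51 and 3.39 to 0.733 and 0.826 RPKM, -1.32 ± 0.09, adjusted p = 0.00153), and Xist, which overlaps it, did not pass the filter. Under the 4 fits that each omit an untreated library, Tsix stayed called each time, H19 in some of the fits and the other called genes named in none (adjusted p up to 0.14).

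Other classes held calls as follows, beside a background on all chromosomes of 7.52% of genes called higher and 4.15% lower. Of 32 genes of the H3K9 methylation machinery Cdyl, a reader of H3K9 methylation, was called higher (0.68 ± 0.11) and only Ehmt1 lower, with a median of 0.01; Ehmt2 differed by -0.08 ± 0.13. Of 16 genes of the PRC1.6 complex, which silences germ line genes, Mga was called higher (0.31 ± 0.07) and none lower as deposited, while 0 were higher and 1 lower with median-of-ratios scaling. Of 26 Polycomb genes Suz12, on chromosome 11 (0.57 ± 0.09), and Scmh1 (0.51 ± 0.12) were higher and Kdm2b (-0.50 ± 0.10) and Cbx6 (-0.69 ± 0.07) lower. Of 77 nuclear genes of oxidative phosphorylation Sdhd was higher (0.55 ± 0.07) and 4 were lower, all on chromosome 1. Zinc finger genes of the Zfp series numbered 295, with 7 called higher and 11 lower and a median of -0.02. Of 24 genes of S phase 1 was called in each direction, of 22 genes of G2 and M phase 2 were called higher, both on chromosome 11, and of 30 histone genes of the replication clusters 1 was called lower, Hist1h1b (-0.67 ± 0.14). Limma called 0 of 24 Hox genes and 0 of 18 genes of the RA pathway; at an unadjusted p under 0.05 the numbers were 1 and 2, and in the fit of the 4 untreated libraries 2 Hox genes were called lower and 4 RA pathway genes higher and 2 lower. Omitting the untreated libraries 1 at a time, Cbx6 stayed called in some of the fits and the other called genes named in none (adjusted p up to 0.241).

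Some called genes lay near each other. Outside chromosomes 1, 11 and Y there were 41 runs of at least 3 genes called in 1 direction with starts at most 200 kb apart. Of these, 33 were of genes called higher and 8 of genes called lower, holding 143 genes. In all, 6.54% of such genes were called higher and 3.32% lower, and how many runs those shares would give was not worked out. Uncalled genes can lie between: 1 run on chromosome 7 held 3 called among 19 tested genes in its span. The longest, with 7 genes, was the Gstp stretch on chromosome 19 (4000579 to 4156710), where Cabp4, a calcium-binding protein gene, rose from 0.782 and 0.635 to 2.90 and 2.23 RPKM (1.06 ± 0.13) and Ptprcap from 0.721 and 1.06 to 2.38 and 2.02 (0.76 ± 0.18). On the X chromosome (7455431 to 7770638) 6 of 15 tested genes were called higher. They included the kinase gene Pim2 (19.98 and 16.9 to 46.4 and 47.7, 1.31 ± 0.09), Glod5 (2.03 and 1.37 to 6.72 and 5.23, 1.37 ± 0.16), Was, the Wiskott-Aldrich gene (0.366 and 0.468 to 2.21 and 2.06, 1.15 ± 0.14), and Ebp. Suv39h1, another H3K9 methyltransferase, lies in the same stretch and was not called (-0.23 ± 0.10); it was named after its value was seen. In the run of lower genes on chromosome 3 (96359690 to 96512483) Txnip, an inhibitor of thioredoxin, went from 69.1 and 69.2 to 43.7 and 44.6 (-0.64 ± 0.09) and Ankrd34a from 4.198 and 4.12 to 2.03 and 1.68 (-0.86 ± 0.10). In a stretch of chromosome 17 (6270474 to 6450142), Tmem181a (-1.36 ± 0.11) and Dynlt1b (-0.90 ± 0.10), named after their values were seen, and the pseudogene Tmem181b-ps (13.01 and 12.9 to 2.50 and 2.40 RPKM, -2.02 ± 0.21) were lower while Dynlt1a was not called (0.20 ± 0.24). These 4 include near-identical copies whose reads may be split between them. With any 1 of the 4 untreated libraries left out, Pim2, Tmem181a and Tmem181b-ps stayed called each time, Cabp4, Glod5, Ankrd34a and Dynlt1b in some of the fits and the other called genes named in none (adjusted p up to 0.223).

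By symbol stem, the families of at least 10 tested genes with the highest share called were Klhl (3 higher and 2 lower of 19), Kctd (3 and 0 of 12), Stk (3 and 0 of 13) and Sema (2 and 2 of 18), out of 102 families. Galnt, Ppm, Ptpn and Trmt followed with 2 of 10 each. Outside chromosomes 1, 11 and Y, which these counts leave out, 6.54% of all tested genes were called higher and 3.32% lower. These families were picked for their calls, so the shares are a description. Kctd15 (9.02 and 9.82 to 21.4 and 18.6 RPKM, 1.01 ± 0.13), Kctd12b (0.75 ± 0.11) and Kctd6 (0.56 ± 0.07) encode proteins with a BTB-type domain, and Stk3 (3.83 and 3.95 to 10.2 and 9.02, 1.11 ± 0.16) is a kinase of the Hippo pathway. The semaphorins, guidance cues, were split, with Sema5a higher (0.351 and 0.380 to 1.90 and 1.97, 1.10 ± 0.10) and Sema5b lower (6.09 and 6.07 to 1.92 and 1.69, -1.34 ± 0.09). Leaving out each untreated library in turn, Sema5a and Sema5b stayed called each time, Kctd15 in some of the fits and the other called genes named in none (adjusted p up to 0.0987).

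Of 191 short RNA genes tested 3 were called higher and 8 lower on all chromosomes, beside 7.52% and 4.15% of all tested genes. Several were at 0 in both libraries of 1 genotype. The 3 called higher, Mir215, Mir675 and Mir709, passed the filter only through the untreated GLP 3A libraries. They had to differ, so their calls are a description. Genes were counted by symbol, and the 8 include Mirg, a longer gene whose locus holds several miRNA symbols. The miRNA genes named here were chosen after their values were seen. Mir692-1 (chromosome 17, 7099577 to 7099686) was listed at 663 and 840.03 RPKM in wild type and at 0 in both GLP 3A libraries, and Mir697 at 38.4 and 34.5 and at 0. In the other direction Mir675, inside H19, was listed at 0 in wild type but at 20.5 and 9.94 in GLP 3A, and Mir215, on chromosome 1, at 0 and 9.37 and 19.9. Mir709, on chromosome 8 and overlapping Rfx1, had 47.9 and 106 RPKM in GLP 3A and 0 in both wild-type libraries. The mature miRNAs of the first 4 genes are shown 5′ to 3′ as RefSeq gives them, with the seed (bases 2 to 8), which pairs with target transcripts, in capitals, since the seed sets which targets each could reach.
mmu-miR-215-5p: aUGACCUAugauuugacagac
mmu-miR-215-3p: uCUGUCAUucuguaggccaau
mmu-miR-675-3p: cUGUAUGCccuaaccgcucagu
mmu-miR-675-5p: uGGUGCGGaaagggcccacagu
mmu-miR-692: aUCUCUUUgagcgccucacuc
mmu-miR-697: aACAUCCUgguccuguggaga
No 2 of these 6 seeds are the same. The RPKM of a gene this short can rest on few reads or on reads of longer transcripts that cross it, and a 0 may be a failed estimate, so no fold change is given.

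The RA-treated libraries share no library with the untreated comparison, though they share its estimate of spread, and give the same contrast in cells that received RA. Of the 743 genes called higher without RA, 168 were also called higher with RA, 23 were called lower and 554 had the same sign. Of the 377 called lower, 94 were also called lower, 7 were called higher and 287 had the same sign. With RA, 5.3% of all tested genes were called higher and 5.31% lower. These genes were chosen by their difference without RA, so the values of both sets with RA are partly set by that choice. The median of the higher set went from 0.64 without RA to 0.17 with RA and that of the lower set from -0.61 to -0.19. The difference between the genotype effects was called for 97 and 45 of these genes (1.8% of all tested genes). Since it contains the difference that chose them, these counts are a description only.

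Some of the largest differences were found again in RA-treated cells and others were not. With RA, Cyct stood at 3.61 and 4.53 RPKM in wild type against 40.2 and 60.98 in GLP 3A (3.32 ± 0.20), Fmr1nb at 0.570 and 0.844 in wild type against 14.4 and 9.67 in GLP 3A (2.91 ± 0.19) and Nxf3 at 0.329 and 0.866 in wild type against 7.18 and 10.1 in GLP 3A (2.60 ± 0.20), and their interactions were not called (adjusted p = 0.589, 0.429 and 0.352). All 7 genes of the cancer-testis list called higher without RA were also called higher with RA, as were all 4 metallothionein genes. Of those 7, Fmr1nb, Pnma5, Nxf3 and Xlr3a passed the filter on low values only through GLP 3A libraries. Their low wild-type values with RA were set by that choice, so their calls with RA are a description. Mt4 was at 1.11 and 1.599 RPKM in wild type against 13.8 and 10.02 in GLP 3A with RA (2.45 ± 0.28). Ubd, in contrast, was at 0.0242 and 0.106 RPKM in wild type against 0.140 and 0 in GLP 3A with RA, near 0 in both genotypes (0.00 ± 0.11; interaction adjusted p = 0.00307), and Maml2 changed sides (1.39 and 1.45 in wild type against 0.746 and 0.759 in GLP 3A, -0.47 ± 0.09; interaction adjusted p = 0.00307). Zic2 was called lower rather than higher in RA-treated GLP 3A, at 7.04 and 10.1 RPKM in wild type against 2.38 and 4.68 in GLP 3A (-1.11 ± 0.27, adjusted p = 0.0499; interaction adjusted p = 0.0306). Pqlc1 turned from lower to higher (7.76 and 9.93 in wild type against 20.4 and 16.1 in GLP 3A, 0.97 ± 0.15, adjusted p = 0.0197; interaction adjusted p = 0.0168). Il3ra stayed lower, at 8.21 and 7.91 RPKM in wild type against 0.892 and 0.227 in GLP 3A (-2.57 ± 0.20, adjusted p = 0.00292). The cholesterol list, 7 higher and 0 lower without RA, had 1 called higher and 6 lower with RA; for Ebp the interaction was not called (adjusted p = 0.267). The list as a whole was not tested for a difference between the states.

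**Figure D5:**
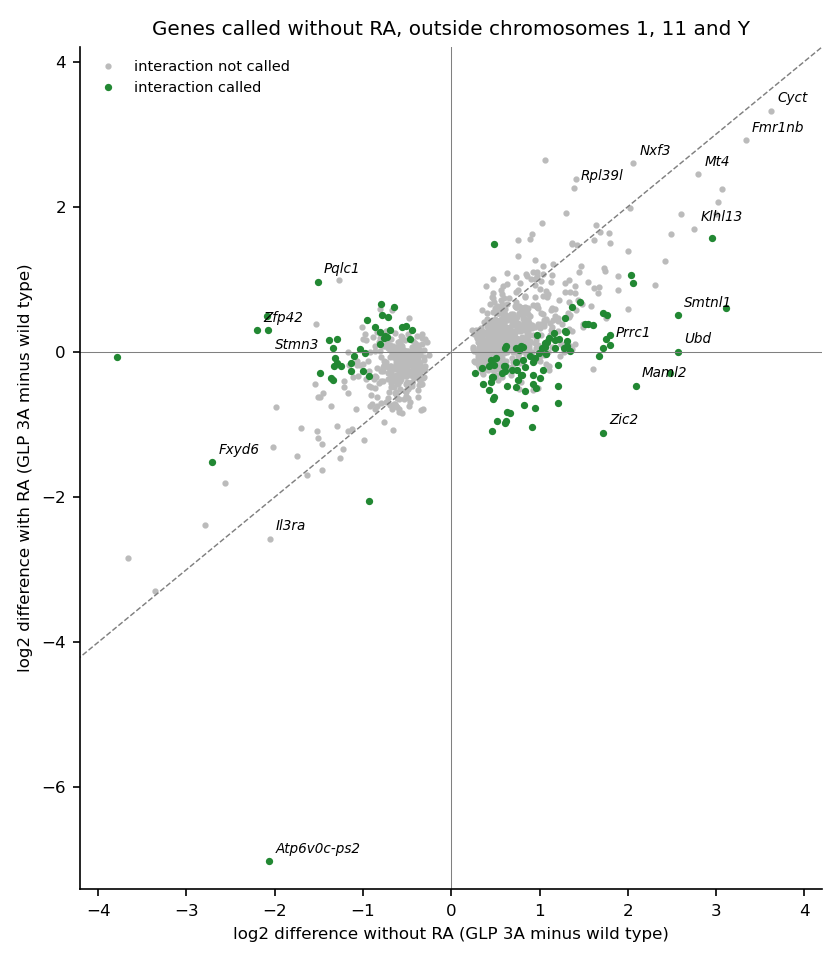
Log2 difference between genotypes without RA (horizontal axis) and with RA (vertical axis) for the 1112 genes called without RA outside chromosomes 1, 11 and Y, short RNA genes aside; green marks a called interaction and the dashed line equal differences. Cyct, Fmr1nb, Nxf3 and Il3ra lie near the line, while Ubd (0.00 with RA), Prrc1 (0.10), Maml2 (-0.47) and Zic2 (-1.11) do not; 2 genes lie outside the axes.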

How the data were processed

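Total RNA was taken with Trizol, treated with DNase and sequenced as single-end Illumina reads. The authors deposited 1 RPKM value per gene and library, with the locus of each gene, per the file headers; Bowtie 0.12.7, SAMtools, TopHat and Cufflinks are named with mm9 in the submitters' processing notes, in no stated role. The sources used here do not state strand or the counting rule, so reads of overlapping genes, such as Sfmbt2, H19, Tsix or Txnip and the symbols within them, cannot be told apart.

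The 8 libraries were joined by gene symbol. Limma 3.58.1 in R 4.3.3 was fitted to log2(RPKM + 1) with 4 group means and an intensity trend, two-sided, over genes at 1 RPKM or more in at least 2 libraries; the method was tested on simulated data. Depth was compared only through the spacing of values under 0.03 RPKM and no counting interval is given. Relations between libraries other than these contrasts were not tested.

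The genes, lists and families were chosen with earlier results of these data known. Named genes were the 20 largest called increases and decreases outside chromosomes 1, 11 and Y without overlap between genotypes, up to 4 called and 2 uncalled members of each list, members of the 5 families and 5 longest runs, and a few fixed genes; Gm, Rik and short RNA symbols were outside this rule. A few genes that the rule picks are left out here. Cdh1, Srebf2, Suv39h1 and Dynlt1a were added outside this rule after their values were seen, as were the called genes marked so in the text. Alternatives changed the pseudocount, the filter, the scaling, the libraries in the fit, the replicate block, the intensity trend and the variance prior. Promoter and miRNA sequences are RefSeq's, matched by symbol for the 4 promoters and 4 miRNA genes shown.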

Additional observations from a re-analysis of the deposited data

Results flagged for a closer look

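The genes given here are named genes for which limma's interaction test over all 13198 genes was called (adjusted p = 0.00307 to 0.0498). Most were named for their difference without RA, which the interaction contains. A smaller difference with RA is therefore partly set by that choice, and the values are a description. Each value is the difference with RA minus that without RA on the log2(RPKM + 1) scale. The groups differ in RA and in LIF together, which cannot be told apart.

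Among genes higher in GLP 3A without RA, the value was -2.84 for Zic2, -2.77 for Egfl6, -2.57 for Ubd, -2.55 for Maml2, -2.06 for Smtnl1 and -1.7 for Prrc1. In RA-treated cells Egfl6 stood at 1.58 and 2.18 RPKM in wild type and 0.841 and 2.01 in GLP 3A, and Smtnl1 at 0.0752 and 0.0413 in wild type against 0.815 and 0.239 in GLP 3A. Signalling genes were among them, with -1.69 for Notum, -1.58 for Id3, -1.46 for Zic5, -1.37 for Kctd15, -1.23 for Pim2 and -1.12 for Tnfrsf19. Notum, Id3 and Tnfrsf19 were called lower in RA-treated GLP 3A (-0.72 ± 0.14, -0.97 ± 0.14 and -0.64 ± 0.11), the opposite of their call without RA. The value was -1.38 for Dnmt3b, -1.23 for Zp3, -1.11 for Gstm3, -0.98 for Cdh3, -0.94 for Fads2, -0.91 for Sema5a and -0.77 for Gstp1. Gstm3 and Gstp1 were still called higher with RA (0.95 ± 0.11 and 0.69 ± 0.09).

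Among genes lower in GLP 3A without RA, the value was 2.59 for Ube2l6, 2.5 for Zfp42, 2.48 for Pqlc1, 2.37 for Stmn3, 1.55 for Plekhb1, 1.42 for Inhbb, 1.2 for Sorl1 and 1.19 for Fxyd6. After RA, Zfp42 stood at 9.31 and 6.32 RPKM in wild type against 13.5 and 6.89 in GLP 3A, and Ube2l6 at 3.06 and 2.07 against 4.47 and 3.55, so the genotypes overlapped for Zfp42. Fxyd6 remained called lower (-1.52 ± 0.14, adjusted p = 0.0054). The value was 1.14 for Spry4, 1.13 for Tsix, 1.05 for Tcf15, 1 for Tmem181a and 0.95 for Sema5b.

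The short RNA genes Mir215 (-3.88), Mir675 (-3.94), Mir709 (-6.17), Mir692-1 (1.54) and Mir697 (4.73) also passed this test, but each was listed at 0 in whole groups, so these values depend on the added 1 and are no fold changes. Mir692-1 was at 0 in all 4 GLP 3A libraries and at 239 and 274 RPKM in RA-treated wild type.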

How the results depend on the processing

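The count of called genes depended most on which libraries set the spread. Of all tested genes 1541 were called, against 3450 with only the 4 untreated libraries (2646 against 1120 outside chromosomes 1, 11 and Y) and 1011 with quantile normalization (734 outside). With any 1 library left out the count ran from 206 to 2298 (161 to 1707 outside), lowest without an untreated library and highest without an RA-treated GLP 3A library. The count of called genes at least 2-fold apart, 277, was 449 with 0.1 RPKM added in place of 1 and 151 to 296 with 1 library left out. The calls with RA, 700 higher and 701 lower, ran in all from 298 to 2431 in those fits. With 1 library omitted, the lone library of its group is taken to vary like the other groups. Higher calls made up 64.4% of all calls, 50.1% after median-of-ratios scaling and 54.0% after quantile normalization. Of 40 genes with the largest changes, 29 stayed called in all 4 fits without an untreated library and all 40 with only the untreated libraries. A refit without the genes of chromosomes 1, 11 and Y, chosen after seeing the data, called 984. Among the named genes signs reversed for 6 uncalled ones: Dnmt3a was at -0.01 after median-of-ratios scaling and -0.02 after quantile normalization, and with 1 library left out Dynlt1a ran from -0.20 to 0.60 and Ehmt2 from -0.16 to 0.01, the negative Dynlt1a and positive Ehmt2 values being those without GLP 3A replicate 2. In the same fits Gstm4 ran from -0.09 to 0.07, Gstm5 from -0.16 to 0.27 and Gstm7 from -0.27 to 0.36, and Gstm5 was at -0.00 after median-of-ratios scaling. A replicate block gave 1741 calls (1284 outside); 5 uncalled named genes became called and 3 called ones were lost. Deviations of libraries with the same number correlated at 0.277 between the untreated genotypes and at 0.169 to 0.355 over the 6 pairs of groups. The labels give only a number, and replicate 2 was the shallower library in every group, so a shared source and a shared depth cannot be told apart. The causes were not tested, and depth limits genes near 0 RPKM most in the replicate 2 libraries.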
